A study of Homo sapiens with 42 samples.

Results

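The 81 genes described here encode the proteins of the cytosolic ribosome. They are the protein-coding genes on the autosomes and the X chromosome whose symbol is RPL or RPS followed by a number, with at most a letter and further digits after it, together with RPLP0, RPLP1, RPLP2 and RPSA. Of 58721 genes in the count tables, 844 carry such a symbol, 84 of these are protein coding and on an autosome or X, and 81 reached the minimum of the rule, a mean of 8 CPM (counts scaled to a common library size) in untreated MV4;11 cells at 24 h. Those that did not include RPL3L with 0.070 CPM and RPL10L with 0.002 CPM. The members just inside were RPL39L with 9.24 CPM, RPL17 with 11.2 CPM and RPL36A with 11.7 CPM. The large subunit has 50 of the members and the small subunit 31, and they lie on 21 chromosomes.

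Polyadenylated RNA was sequenced in 42 libraries of human leukaemia cells in which MLL (KMT2A) is fused to AF4. MV4;11, a myeloid line, was given MS41, MS41N or PFI-6 at 100 nM or DMSO for 6 or 24 h, with 3 libraries for each compound and time. SEMK2, a B-precursor line, was given MS41 at 100 nM or DMSO, with 3 libraries each and no time in the labels. MV4;11 cells with either of 2 guides against ENL (ENLsg1, ENLsg2) or a control guide (Negsg) gave 2 libraries each. Mice given MS41 or vehicle yielded 3 libraries of MV4;11 cells per group; a SMART-Seq kit for low input was used, and the labels give neither dose nor time. Cells with ENLsg1 or ENLsg2 are labelled as ENL knockout and all others as wild type. MS41 is the small molecule that the study made to degrade ENL (gene MLLT1), a reader of acetylated histones in the complexes that help MLL fusions to drive transcription. PFI-6 blocks the YEATS domain, the reader module of ENL and its relative AF9. The labels do not state the role of MS41N, and the treatment text writes MS47N for it. The labels do not say whether replicates were separate cultures or animals, so p-values measure the spread between these libraries, which may be technical.

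A library held 102345811 to 156479711 counts in the compound set of MV4;11, 155911682 to 230637548 in SEMK2, 77216662 to 87813453 with guides and 99485164 to 126740852 in vivo. All 81 members passed the filter on low counts in each of the 4 tables. Their median coefficient of variation between replicates was 1.22% to 3.93% in the MV4;11 compound groups, with the highest value in MS41 at 24 h. It was 3.48% to 4.64% in SEMK2, 1.32% to 7.93% with guides and 3.56% to 3.67% in vivo. In the guide libraries MLLT1 itself had 181 and 190 CPM with ENLsg1 and 123 and 128 CPM with ENLsg2, against 223 and 250 CPM with the control guide. Its log2 fold change was -0.63 ± 0.062 (SE; edgeR quasi-likelihood test, adjusted p = 6.4e-05). MS41 acts on the protein, so MLLT1 mRNA is no check of its labels. B-precursor markers summed to 1590 to 1690 CPM in SEMK2 and to under 5 CPM in MV4;11. The sum of 7 myeloid markers did not separate the lines, with 1950 to 2080 CPM in SEMK2 with DMSO. In MV4;11 with DMSO it was 1100 to 1110 CPM at 6 h and 2110 to 2180 CPM at 24 h. No stromal or endothelial marker reached 1 CPM in vivo. These are human genes counted on a human genome, so they cannot show whether RNA of the mouse host was present.

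Each ribosome holds 1 copy of most of these proteins, and cells make them in step with one another and with ribosomal RNA. Their mRNAs are short, abundant and long-lived. Most begin with a C followed by a run of pyrimidines, the terminal oligopyrimidine (TOP) tract, through which mTOR signalling and the RNA-binding protein LARP1 set how well they are translated. A few have a paralog, marked by an added L in the symbol, that can take the place of the parent protein or has a role of its own. MYC is a known activator of ribosome production in many cancers.

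The annotated starts of the members carried pyrimidine runs far more often than those of other genes. RefSeq (GRCh38.p14) listed a promoter for 66 of the 81. Within 5 bases of the listed start, 52 of these 66 (78.8%) had an unbroken run of C and T at least 7 bases long on the transcribed strand, against 5083 of 27305 genes (18.6%). The longest such run had a median of 11 bases in the members and 4 bases over all genes. The windows below hold 30 bases around the listed start of pairs of parent and paralog and of other members whose values are described later, with the run in capitals and the strand of the gene given. They are shown so that parent and paralog can be compared: the starts listed for RPL26L1 and RPS27L have no such run while those of RPL26 and RPS27 do, and RPL22 and RPL22L1 both have one. RPL7L1 has none.
RPL22, chr1:6199581-6199610, minus strand: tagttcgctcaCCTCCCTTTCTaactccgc
RPL22L1, chr3:170870181-170870210, minus strand: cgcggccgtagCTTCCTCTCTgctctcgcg
RPL26, chr17:8383179-8383208, minus strand: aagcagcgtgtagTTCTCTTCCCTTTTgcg
RPL26L1, chr5:172958714-172958743, plus strand: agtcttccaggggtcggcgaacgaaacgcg
RPS27, chr1:153990747-153990776, plus strand: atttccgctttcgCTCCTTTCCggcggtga
RPS27L, chr15:63157463-63157492, minus strand: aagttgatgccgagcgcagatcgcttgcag
RPL7L1, chr6:42879601-42879630, plus strand: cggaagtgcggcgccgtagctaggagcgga
RPL39, chrX:119791616-119791645, minus strand: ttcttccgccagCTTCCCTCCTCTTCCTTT
RPL17, chr18:49492451-49492480, minus strand: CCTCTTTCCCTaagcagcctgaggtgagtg
RPL21, chr13:27251543-27251572, plus strand: cggccccgCCTCTTTCCTTTCggccggaac
RPL15, chr3:23916530-23916559, plus strand: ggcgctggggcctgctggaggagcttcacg
RPL13A, chr19:49487593-49487622, plus strand: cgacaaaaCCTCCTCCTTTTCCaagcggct
Over the 300 bases from 250 before to 50 after the start, searched on both strands, CCGGAAG (an ETS-type motif) was found in 24 of the 66 (36.4%), against 12.2% of all genes. AAGATGGC, the core of the YY1 motif, was found in 7 (10.6% against 3.52%), and the end of the first can overlap the start of the second. The E-box CACGTG, a sequence that MYC can bind, was found in 5 (7.58% against 8.77% of all genes), and TATAAA in 6 (9.09% against 14%).

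The gene bodies had a second shared feature. Of the members, 28 host small nucleolar RNAs in their introns, 60 in all, which is 34.6% of the members against 1.26% of tested genes. RPL4 holds 5. Copies are common too: 76 of the members have processed pseudogenes that carry their symbol, 1135 in total. For 11 members those pseudogenes held over 50% as many counts as the gene itself, with 522% for RPL21, 336% for RPL41, 297% for RPL7 and 166% for RPL17. Reads of these members and of their copies cannot be told apart with certainty in the deposited counts. RPS10, RPL17 and RPS2 share 39.4%, 32.7% and 25.6% of their exon bases with another gene on the same strand. RPL22L1, RPL26L1, RPL39L and RPS27L have no annotated pseudogene.

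Levels spread widely among proteins of which the ribosome mostly holds equal numbers. Per length of merged exons, the members had a median of 572 TPM (counts per length, scaled to a fixed total per library) in DMSO at 24 h, and together made up 6.28% of that total. Among the highest were RPS18 (2813 ± 58.1) and RPL7A (2526 ± 24.5), whose SD did not overlap. The lowest were RPL39L (27.4 ± 0.883), RPL17 (14.2 ± 0.837) and RPL36A (9.29 ± 0.330), each mean ± SD over 3 libraries on the same per-length scale. Each of the 5 L paralogs among the members lay below its parent. RPL36AL, outside the symbol rule, is not one of them. RPL22L1 had 179.6 ± 7.08 against 327 ± 8.34 for RPL22, and RPL7L1 had 163 ± 2.20 against 739.9 ± 8.15 for RPL7. RPL26L1 had 77.2 ± 1.07 against 306 ± 12.4 for RPL26, RPS27L 41.0 ± 1.89 against 1397 ± 44.6 for RPS27, and RPL39L 27.4 against 990.3 ± 29.1 for RPL39. The per-length level rests on the length used: the median was 832 with the longest transcript. In SEMK2 with DMSO, the order of paralogs differed, with RPL39L at 58.5 ± 6.04 and RPL22L1 at 46.7 ± 3.41.

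MS41 lowered the ribosomal protein genes together, and by a little, within 6 h. In the edgeR test over 22711 genes, 62 of the 81 fell and none rose, against 13.8% of all tested genes that fell and 12.2% that rose (26% called in all). The median log2 fold change was -0.10, a decrease of 6.91%, while all genes had a median of 0.02, and 80 of the 81 changes were negative. The groups of 3 libraries did not overlap for 62 members, against 37.4% of all genes. Both subunits took part, with 39 of 50 large-subunit and 23 of 31 small-subunit genes lower and medians of -0.11 and -0.10. Other abundant mRNAs did much the same: 76.5% of the members fell, against 68.0% of 381 genes outside the set with at least the expression of the members' lower quartile (362 CPM), which had a median of -0.11. The fall at 6 h was thus not shown to be particular to ribosomal proteins. Against the same DMSO libraries, the median of the members was also negative with MS41N (-0.05) and with PFI-6 (-0.07) at 6 h.

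The deepest fall at 6 h was in RPL7L1, a relative of RPL7 whose yeast counterpart works in assembly of the large subunit. It had 362, 364 and 367 CPM with MS41, against 428, 427 and 433 CPM with DMSO. Every MS41 library lay below every DMSO library, and the log2 fold change was -0.24 ± 0.024 (adjusted p = 4.4e-11). RPL22L1, the paralog of the RNA-binding large-subunit protein RPL22, had 67.3, 72.2 and 71.9 CPM with MS41, against 82.6, 83.0 and 80.6 CPM with DMSO. Its groups were also apart, with -0.22 ± 0.035 (adjusted p = 2.3e-06). The next largest falls were RPS29 at -0.19, RPL17 at -0.18, RPL21 at -0.17 and RPL27 at -0.16, so the range among the members was narrow.

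Among members with known side roles, RPL5 (-0.10) and RPL11 (-0.08), which with 5S RNA form the particle that binds MDM2 when assembly fails, both fell at 6 h. RPS6, the substrate of S6 kinase, fell by 0.12 on the log2 scale, and RPS14 and RPS19, which are mutated or lost in inherited and acquired anaemias, by 0.15 and 0.08. RPS27A, made as a fusion with ubiquitin, changed by -0.12 and RPSA, also known as the laminin receptor, by -0.08, both called. RPS4X and RPL10, both on the X chromosome, fell by 0.08 and 0.07. Of the stalk proteins, which recruit elongation factors, RPLP0 had -0.04, RPLP2 -0.05 and RPLP1 0.02, none of them called. RPS2 (-0.00), RPS27 (-0.02), RPL13A (-0.06), RPL36A (-0.05) and RPL39L (-0.09) were not called either.

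**Figure D1:**
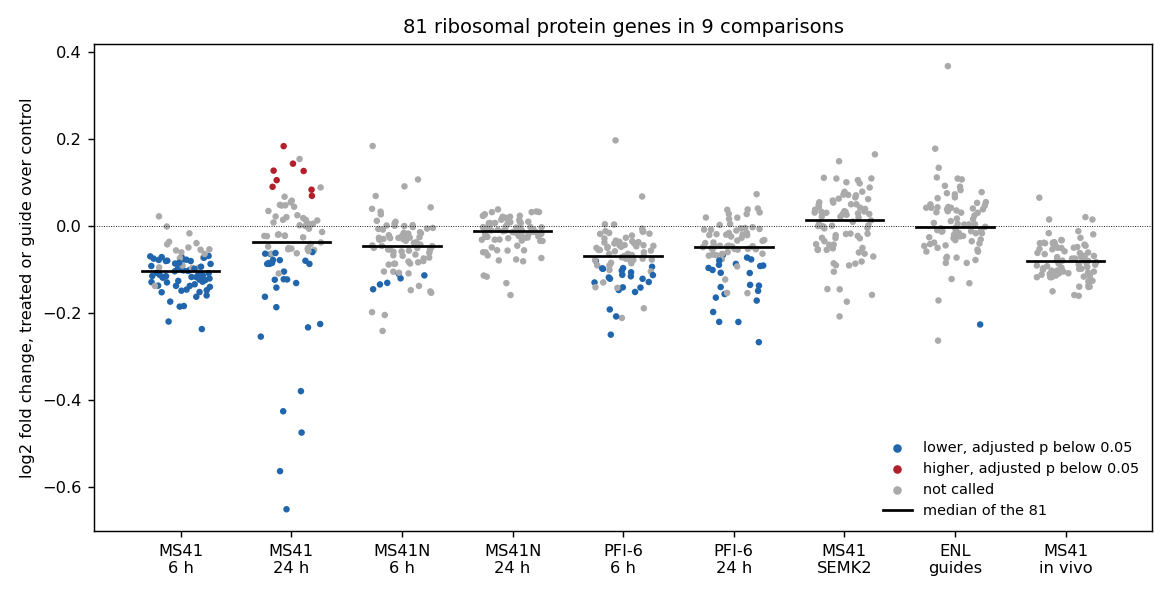
Log2 fold change of each of the 81 genes (points) in 9 comparisons, treated or guide over its control, with the median of the 81 as a line. Blue and red points have an adjusted p below 0.05 in edgeR's test. With MS41 the 62 blue points at 6 h form a tight band around -0.10, while at 24 h the spread runs from -0.65 to 0.18.

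At 24 h the set had come apart. With MS41, 28 members were lower and 8 higher than with DMSO, against 22.9% and 21.4% of all tested genes (44.3% called), so the share that fell, 34.6%, was closer to the background than at 6 h, and the share that rose, 9.88%, was below it. The groups did not overlap for 28 members, against 50.2% of all genes. The median log2 fold change was -0.04, and the SD across members was 0.14 at 24 h against 0.04 at 6 h. All 5 L paralogs fell, with a median of -0.43. The other 76 had a median of -0.02, with 23 lower and 8 higher. Here the other abundant mRNAs differed from the members, with 63.3% of the 381 lower and a median of -0.16, a description with no test behind it. The 24 h split moved with the library left out: it was 15 lower and 9 higher without MS41 replicate 1, 43 and 5 without replicate 2, and 18 and 13 without replicate 3. It also moved with corrections for transcript properties, to 17 lower and 22 higher once the trend with GC content was removed and to 13 and 35 once that with length was. The summed level of 7 myeloid markers was 3180 to 3370 CPM with MS41 at 24 h, against 2110 to 2180 CPM with DMSO, with CD14 alone under 1 CPM. At 6 h it was 911 to 919 CPM with MS41, against 1100 to 1110 CPM with DMSO, and the part of this in the members' changes was not tested.

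The paralogs that fell were led by RPL22L1. It had 83.4, 89.2 and 86.2 CPM with MS41, against 138, 141 and 128 CPM with DMSO. The 2 groups were far apart, and the log2 fold change was -0.65 ± 0.035, a fall of 36.4% (adjusted p = 8.7e-21). Its parent RPL22, which acts in lymphocyte development in mouse and is known there to restrain its paralog's expression, moved the other way. RPL22 had 533, 548 and 523 CPM with MS41, against 509, 503 and 479 CPM with DMSO, and rose by 0.11 ± 0.026 (adjusted p = 0.00055). RPL7L1 fell further than at 6 h, to 313, 313 and 297 CPM with MS41, against 420, 416 and 404 CPM with DMSO, a log2 fold change of -0.43 ± 0.024 (adjusted p = 4.8e-20). Its relative RPL7 was at 0.01 and not called.

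RPL39L, the testis-enriched relative of the exit-tunnel protein RPL39, had 6.47, 7.35 and 6.47 CPM with MS41, against 9.78, 9.22 and 9.23 CPM with DMSO. The log2 fold change was -0.48 ± 0.075 (adjusted p = 6.0e-07), while RPL39 had 0.02 and was not called. RPL26L1, which differs little from RPL26 in sequence, had 21.5, 23.6 and 22.2 CPM with MS41, against 29.2, 28.9 and 29.3 CPM with DMSO, or -0.38 ± 0.044 (adjusted p = 3.8e-10). RPL26 was at 0.00. RPS27L, a target of p53 in addition to its kinship with RPS27, had 99.0, 111 and 101 CPM with MS41, against 126, 125 and 114 CPM with DMSO, and fell by 0.23 on the log2 scale. RPS27 rose by 0.14. In each of the 5 pairs the paralog was called lower with no overlap between groups, while the parent was called higher (RPL22, RPS27) or not called (RPL7, RPL26, RPL39); whether paralog and parent differ in response was not tested.

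**Figure D2:**
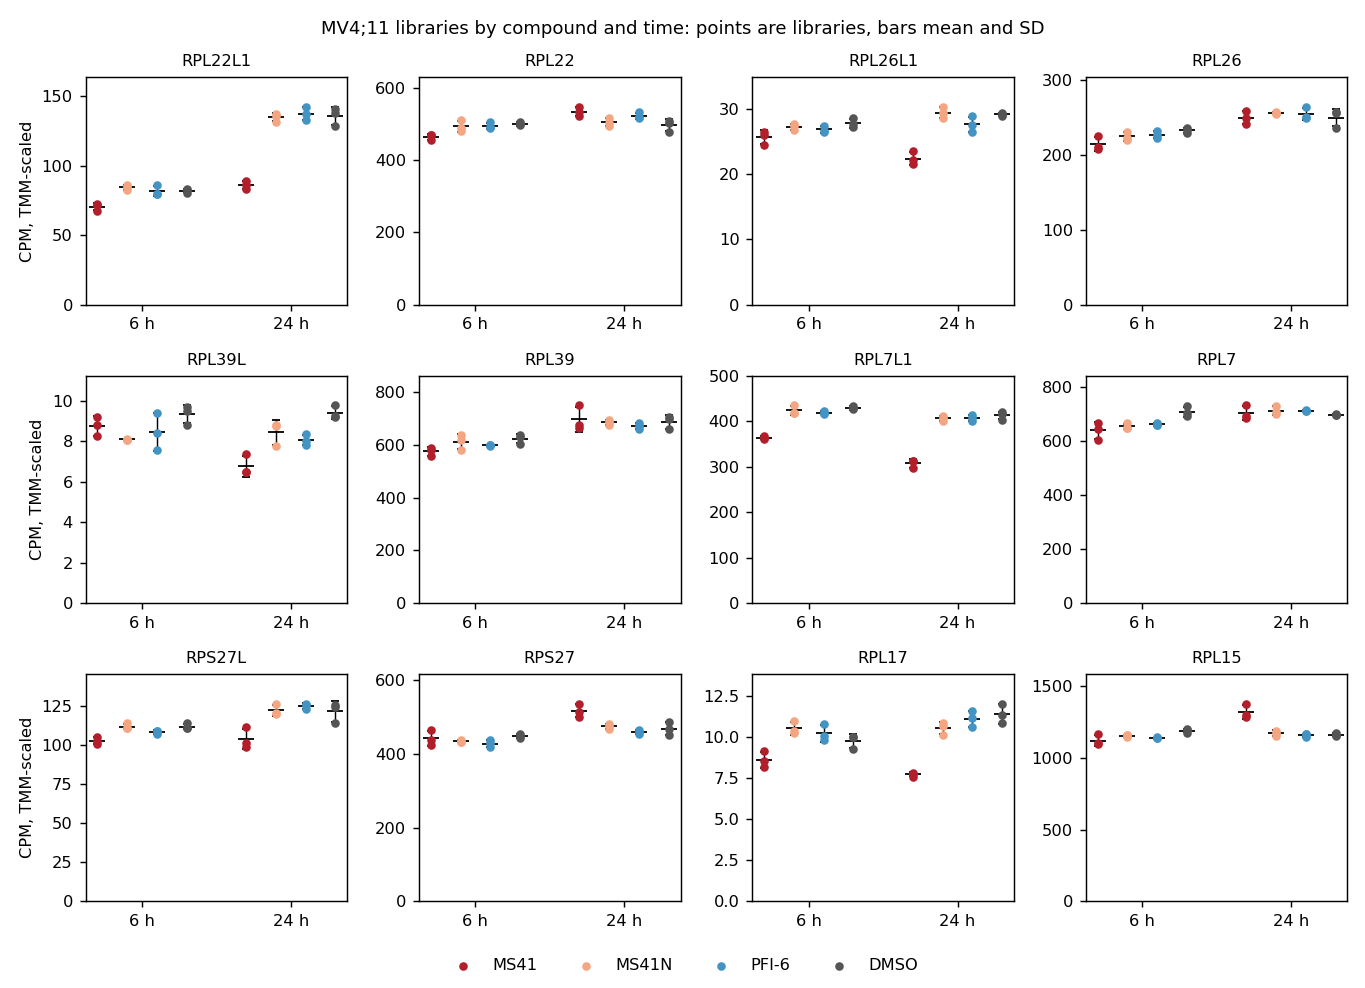
CPM on a TMM-scaled library size for the 5 L paralogs, their parents, RPL17 and RPL15 in each MV4;11 compound library; points are libraries, lines the mean with SD of 3, and each axis starts at 0. RPL22L1 at 24 h lies between 83.4 and 89.2 CPM with MS41, against 128 to 141 CPM with DMSO, and the MS41N (132 to 137 CPM) and PFI-6 (133 to 142 CPM) libraries overlap DMSO.

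Outside the paralogs the deepest fall was that of RPL17, a protein at the exit of the peptide tunnel. It had 7.77, 7.57 and 7.79 CPM with MS41, against 10.8, 11.3 and 12.02 CPM with DMSO, or -0.56 ± 0.064 (adjusted p = 3.4e-10). These few counts are those left to the gene beside its pseudogenes and the overlapping readthrough gene, and with the copies added the change was -0.19, still called. RPL21 fell by 0.25 on the log2 scale, or by 0.13 with its copies added, and RPS26 fell by 0.23. The largest rise was in RPL15, a core protein of the large subunit, with 1300, 1381 and 1286 CPM with MS41, against 1162, 1173 and 1157 CPM with DMSO. All MS41 libraries were above all DMSO libraries, with 0.18 ± 0.023 (adjusted p = 5.6e-09). RPS20 (0.13), RPL37 (0.13), RPL31 (0.09), RPL13A (0.08) and RPL12 (0.07) rose as well; the groups of RPL31 overlapped. RPL13A is known outside the ribosome as part of a complex that silences inflammatory mRNAs.

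Members with side roles were close to their DMSO level at 24 h. RPL5 (-0.06), RPS19 (-0.06), RPS27A (-0.09) and RPLP2 (-0.08) were called lower, and each of these turned slightly positive (0.0023 to 0.032) with the trend of GC content or of length removed. RPL11 (0.01), RPS6 (-0.02), RPS14 (0.01), RPSA (-0.04), RPS4X (0.01), RPL10 (0.02), RPL36A (-0.05), RPLP0 (-0.02) and RPLP1 (0.05) were not called.

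The change from 6 to 24 h, tested as the difference between both effects in the fit of all MV4;11 libraries, was called for 32 members. Of these 26 moved up and 6 down, against 11.9% and 14.5% of all genes (26.4% called). With the trend with length removed, 52 were called, 47 up and 5 down. The median change was 0.06, against -0.01 over all genes. Those that moved down were RPL22L1 (-0.43), RPL39L (-0.38), RPL17 (-0.38), RPL26L1 (-0.26), RPL7L1 (-0.19) and RPS26 (-0.11), and RPL17 is no longer called with its copies added, at -0.05. Those that moved up most were RPL15 (0.27), RPL37 (0.24), RPL22 (0.22), RPS20 (0.20) and RPL31 (0.19). By gene, 24 of the members were called lower at both times, 32 were called lower at 6 h and not called at 24 h, and 13 were called at neither time. A call at one time and not at the other is no test of a change between them. The 4 that were called lower at 24 h and not called at 6 h show this. The test of the change called RPL39L, but not RPL8 (-0.03, adjusted p = 0.74), RPLP2 (-0.02, adjusted p = 0.73) or RPS10 (-0.03, adjusted p = 0.80). A further 6, RPL12, RPL15, RPL22, RPL31, RPL37 and RPS20, were called lower at 6 h and higher at 24 h. RPL13A and RPS27 were called higher at 24 h and not called at 6 h, and both moved up in the test of the change.

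**Figure D3:**
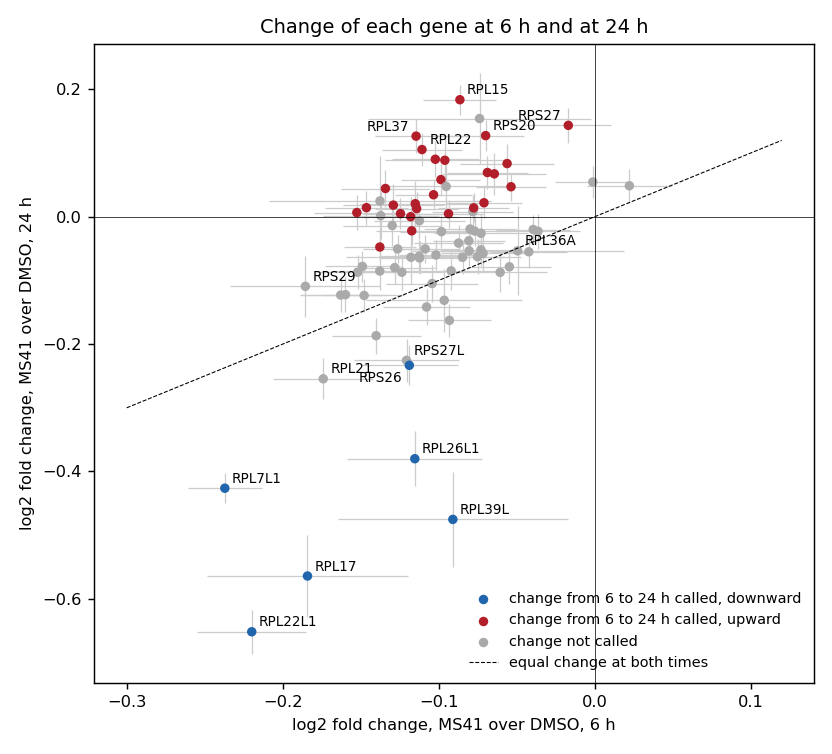
Log2 fold change of MS41 over DMSO for the 81 genes at 6 h (x axis) and 24 h (y axis), with SE bars; the dashed line marks an equal change at both times. Blue (6) and red (26) points changed between the times at an adjusted p below 0.05, and RPL22L1, RPL17, RPL39L, RPL7L1 and RPL26L1 lie well below the rest at 24 h.

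Members with and without a pyrimidine run at the listed start are given side by side, as a description with no test. With MS41 at 6 h, 39 of 52 with a run and 12 of 14 without one were lower, with median log2 fold changes of -0.10 and -0.13. With MS41 at 24 h, 18 of 52 with a run and 6 of 14 without one were lower, with medians of -0.04 and -0.06. Leaving the L paralogs out turned the order of these medians, to -0.04 for 51 with a run and -0.01 for 11 without. With PFI-6 at 24 h, 17 of 52 with a run and 1 of 14 without one were lower, with medians of -0.05 and -0.04. In DMSO at 24 h against 6 h, 39 of 52 with a run and 8 of 14 without one were higher. RPL22L1 and RPL17, with the deepest falls, hold a run in the windows printed above, as do RPL22 and RPL13A, which rose; RPL15, which rose most, and RPL7L1 and RPL26L1, which fell, hold none.

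The 3 compounds were given at the same dose, and all 5 L paralogs were lower with MS41 at 24 h when set directly against MS41N or PFI-6. MS41N against DMSO at 24 h gave no called member in edgeR's test (9 had an unadjusted p below 0.05, and DESeq2 also called 0), against 0.0352% of all genes (0.0176% lower and 0.0176% higher), with a median of -0.01. RPL22L1 had 132, 136 and 137 CPM with MS41N at 24 h, against 138, 141 and 128 CPM with DMSO, and the groups overlapped. The 95% interval of its log2 fold change was -0.08 to 0.06. MS41 set directly against MS41N at 24 h gave 20 members lower and 15 higher (42.4% of all genes called), and 25 whose groups did not overlap (48.5% of all genes). Among them were RPL22L1 at -0.64 ± 0.035 and RPL15 at 0.17 ± 0.023. RPL17 had -0.45, RPL7L1 -0.40, RPL26L1 -0.39, RPL39L -0.32 and RPS27L -0.24 in that contrast, all called. This split also moved, to 14 lower and 25 higher with the GC trend removed and to 12 and 36 with the length trend removed.

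PFI-6 lowered part of the set at both times. At 24 h, 23 members fell and none rose with PFI-6 (12.4% of all genes called, 6.78% lower and 5.57% higher), with a median of -0.05. The largest falls were RPS29 (-0.27 ± 0.048), RPL39L (-0.22 ± 0.074), RPS19 (-0.22 ± 0.026), RPL8 (-0.20 ± 0.030) and RPL36 (-0.17 ± 0.028). RPS19 had 552, 541 and 555 CPM with PFI-6, against 633, 645 and 642 CPM with DMSO, with every PFI-6 library below every DMSO library. RPL22L1, in contrast, had 133, 142 and 137 CPM with PFI-6, which overlapped DMSO, and an interval of -0.05 to 0.09. MS41 against PFI-6 at 24 h gave 16 members lower and 27 higher (42.3% of all genes called), with RPL22L1 at -0.67 ± 0.035, RPL7L1 at -0.41, RPL26L1 at -0.30, RPS27L at -0.27, RPL39L at -0.25, RPL28 at 0.31 ± 0.072 and RPL15 at 0.19 ± 0.023. Over the 81 genes, the log2 change with PFI-6 at 24 h was lower in GC-rich members (Pearson r = -0.561, Spearman rho = -0.615, over genes of the same libraries). The count of 23 was 12 to 16 when any 1 library was left out.

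At 6 h each of the compounds lowered some members. PFI-6 lowered 22 and raised none (2.05% of all genes called, 1.39% lower and 0.66% higher), with RPS29 at -0.25 and RPS21 at -0.21 the most. MS41N lowered 6, which were RPS14 (-0.15), RPS21 (-0.13), RPL30 (-0.13), RPL38 (-0.12), RPL7 (-0.11) and RPL37 (-0.11), against 0.321% of all genes called. All 3 contrasts use the same DMSO libraries. Leaving out DMSO replicate 2 reduced the count to 4 with PFI-6 and to 0 with MS41N, and the other libraries gave 8 to 16 and 1 to 7. Directly against MS41N, MS41 at 6 h had 26 members lower and none higher (21.8% of all genes called) with a median of -0.05. In that contrast 32.1% of the members were lower. Of the 381 other abundant genes 59.3% were lower and 6.30% higher, with a median of -0.09, a description with no test. Against PFI-6, MS41 at 6 h had 14 members lower and none higher (19.5% of all genes called, 10.1% lower and 9.35% higher) with a median of -0.02. The count was 9 to 10 once PFI-6 replicate 2 or 3 or MS41 replicate 3 was left out. Here 17.3% of the members were lower. Of the other abundant genes 58.5% were lower and 3.67% higher, with a median of -0.09. RPL7L1 was at -0.22 against MS41N and -0.20 against PFI-6, and RPL22L1 at -0.26 and -0.21, all called.

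DMSO cultures changed between the times as well. At 24 h, 55 members were higher and 1 lower than at 6 h in DMSO (30.2% of all genes called), with a median of 0.10, and the groups of 59 members did not overlap (41.2% of all genes). RPL22L1 rose most, with 138, 141 and 128 CPM at 24 h, against 82.6, 83.0 and 80.6 CPM at 6 h, a log2 difference of 0.72 ± 0.035 (adjusted p = 1.8e-21). The MS41 libraries at 24 h, at 83.4 to 89.2 CPM, were thus near the level of DMSO at 6 h. RPL13A had 0.25, RPL17 0.22, RPS3A 0.22 and RPS4X 0.21, and RPL36A, the single one lower, had -0.31.

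The share of all counts that fell on the members gave another view of the MS41 libraries at 24 h. It was 6.01% to 6.25% with MS41, against 5.94% to 5.98% with DMSO, so the groups did not overlap and the share was higher by 0.142 points, although the median of the fitted changes was slightly negative. The scaling factors used in the fit were 0.998 to 1.03 with MS41 and 0.977 to 0.992 with DMSO. Replicate 2 with MS41 had the highest share, and without it the difference was 0.064 points. The share taken by mitochondrial genes moved too, with 5.86% to 7.04% in MS41 libraries and 5.20% to 5.41% in DMSO libraries, and over nuclear genes alone the members' difference was 0.225 points. With PFI-6 at 24 h the members' share was 5.70% to 5.72%, below all DMSO libraries. At 6 h the members' share was 5.45% to 5.61% with MS41, against 5.56% to 5.69% with DMSO, and overlapped. At the same time it was 5.468% to 5.494% with MS41N and 5.398% to 5.423% with PFI-6, both below all DMSO libraries. The group means at 6 h were 5.478% with MS41N and 5.408% with PFI-6, against 5.51% with MS41. Whether the compounds differ in this share was not tested.

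**Figure D4:**
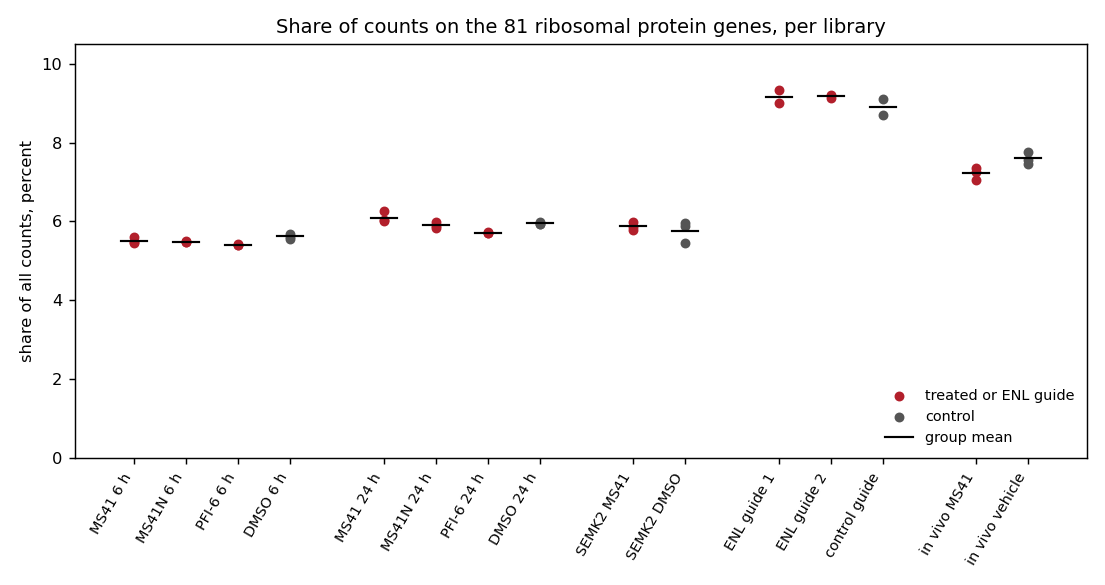
Share of all counts in a library, in percent, that fell on the 81 genes; points are libraries and lines group means, with treated or ENL guide libraries in red and controls in grey. MS41 at 24 h (6.01% to 6.25%) lies above DMSO (5.94% to 5.98%), and in vivo MS41 (7.05% to 7.35%) below vehicle (7.47% to 7.77%).

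In SEMK2 no member was called with MS41 against DMSO (edgeR, 1.36% of all genes called, 0.518% lower and 0.84% higher; 11 members had an unadjusted p below 0.05, and DESeq2 called 0). The median log2 fold change was 0.01, with 36 negative and 45 positive. RPL22L1 had 29.4, 26.3 and 24.3 CPM with MS41, against 28.7, 30.0 and 33.5 CPM with DMSO. The groups overlapped, and the log2 fold change was -0.21 ± 0.076 (adjusted p = 0.25). RPL7L1 had 262, 267 and 270 CPM with MS41, against 282, 284 and 294 CPM with DMSO, which did not overlap, at -0.11 ± 0.034 (adjusted p = 0.20). The rise of RPL15 in MV4;11 had a counterpart of 0.07 in SEMK2 that overlapped. Replicate 3 with DMSO stood apart: its members' share was 5.46%, below the other SEMK2 libraries (to 6.00%). Without it 13 members were lower and 4 higher. The share of all genes called in that fit is not given here, so these counts are not set against it.

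With ENL guides 1 member was called, RPL7L1, against 10.3% of all genes (4.98% lower). It had 312 and 312 CPM with ENLsg1 and 315 and 301 CPM with ENLsg2, against 352 and 373 CPM with the control guide. Both guides lay below both control libraries, with -0.23 ± 0.060 (adjusted p = 0.031). The call was lost without any 1 of the 4 ENL guide libraries or without control guide replicate 2 (-0.25 to -0.18, adjusted p = 0.077 to 0.15), and held without control guide replicate 1 (-0.27, adjusted p = 0.010). A further 3 members had an unadjusted p below 0.05, and DESeq2 called 2 in all. RPL39L had 10.1 and 10.1 CPM with ENLsg1 and 10.7 and 11.3 CPM with ENLsg2, against 12.4 and 12.9 CPM with the control guide (-0.26, adjusted p = 0.077). RPL26L1 (-0.13) and RPL17 (-0.17) were also apart from control without being called. In all, the groups of 8 members did not overlap, against 36.7% of all genes, so lying apart is common in this table. RPL36A was at -0.05 with MS41 against DMSO at 24 h. With guides it had 8.72 and 9.05 CPM (ENLsg1) and 7.18 and 8.60 CPM (ENLsg2). The control guide gave 6.28 and 6.70 CPM (0.37, adjusted p = 0.060). Directly against MS41N and against PFI-6 at 6 h, RPL36A was called lower with MS41. RPL22L1, the member that fell furthest with MS41 at 24 h, was at -0.07 with a 95% interval of -0.22 to 0.07, so its fall of 0.65 lies outside that interval.

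**Figure D5:**
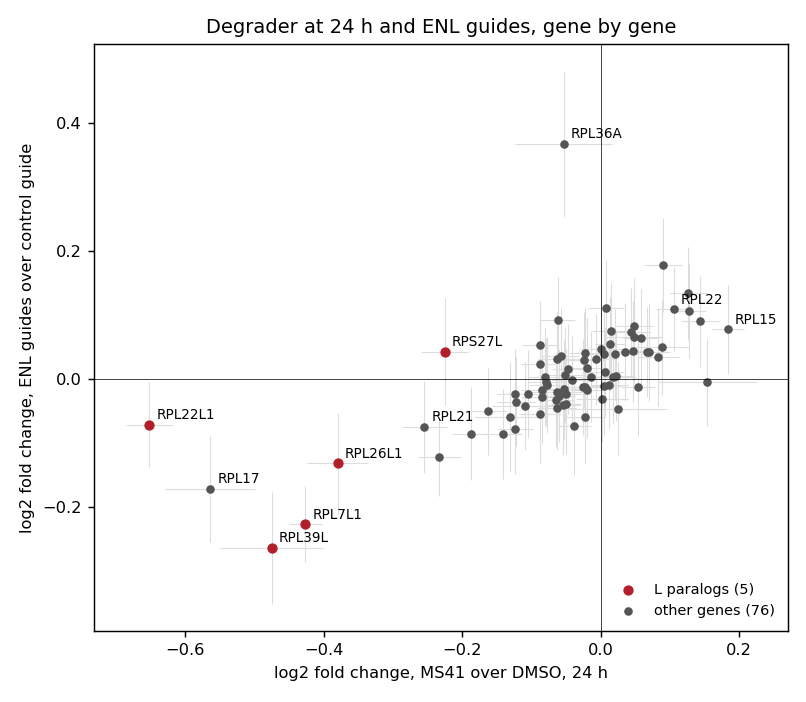
Log2 fold change of the 81 genes with MS41 over DMSO at 24 h (x axis) and with ENL guides over the control guide (y axis), with SE bars; the L paralogs are red. RPL7L1, RPL39L, RPL26L1 and RPL17 are negative on both axes. RPL22L1 is near 0 (-0.07) with guides, and RPL36A (0.37) is high on the guide axis only.

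Changes of the members can be set side by side between tables that share no library. Across the 81 genes, the changes with MS41 at 24 h and with ENL guides had a Pearson r of 0.667 and a Spearman rho of 0.709, and without the L paralogs 0.605 and 0.696 over 76 genes. With MS41 in SEMK2 the values were 0.613 and 0.582, or 0.488 and 0.529 without them. With MS41 in vivo they were -0.337 and -0.163. These describe genes, which are not independent replicates and share their length, GC content and abundance between the fits. Expression itself went with the change: members with higher CPM had less negative changes with MS41 at 24 h (r = 0.574, rho = 0.395, n = 81).

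In vivo no member was called with MS41 against vehicle (edgeR with a term for replicate number, 0.0328% of all genes called; 7 members had an unadjusted p below 0.05, and DESeq2 called 0). Still, 77 of the 81 changes were negative, with a median of -0.08, and the members' share of counts was 7.05% to 7.35% with MS41, against 7.47% to 7.77% with vehicle, with no overlap. The groups of 40 members did not overlap, against 30% of all genes. Among the most negative was RPL35 (-0.16 ± 0.066, adjusted p = 0.63). It had 455, 445 and 413 CPM with MS41, against 469.6, 478 and 518 CPM with vehicle, all 3 below all 3. RPL22L1 (46.7, 43.8 and 45.7 CPM with MS41, against 43.7, 46.4 and 44.7 CPM with vehicle) and RPL7L1 (0.01 and -0.01 on the log2 scale) overlapped. The intervals, -0.13 to 0.16 and -0.13 to 0.11, do not reach the falls in culture at 24 h. These values had been adjusted by the authors by replicate number, and low-input libraries are not comparable in level with the others. Deviations of same-numbered vehicle and MS41 libraries mirrored each other (mean r = -0.977). A lack of overlap in vivo is therefore not a measure against the spread of unadjusted libraries. The summed myeloid markers were 6850 to 8090 CPM with MS41, against 7200 to 8470 CPM with vehicle.

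Genes that work with the ribosomal proteins were read from lists, whose counts stand beside 13.8% of all tested genes lower with MS41 at 6 h and 22.9% at 24 h. Among the 381 other abundant genes these shares were 68.0% and 63.3%, so a list with a like share is not set apart from abundant mRNAs. A list of chaperones that escort newly made ribosomal proteins also holds NACA and BTF3. Of its 11 genes, 8 fell at 6 h and 10 at 24 h with MS41, with medians of -0.13 and -0.40. NACA and BTF3 were among those lower at both times. GRWD1, the chaperone of RPL3, had 49.3 ± 2.67 CPM with MS41 at 24 h, against 79.0 ± 1.42 CPM with DMSO (-0.68 ± 0.037), and BCCIP, which escorts RPL23, was at -0.54. Of 11 regulators of growth and TOP mRNA translation, 6 fell at 6 h and 8 at 24 h. EIF4EBP1, the mTOR target that holds back cap-dependent initiation, had -0.71 and LARP1 -0.48 at 24 h. Initiation factor 3, the scaffold that brings the small subunit to mRNA, had 10 of 13 subunits lower at 6 h, and 8 lower and 2 higher at 24 h, with EIF3B at -0.56 and EIF3I at -0.51. Of 17 genes in a list of other initiation factors that also holds PABPC1 and TPT1, 13 fell at 6 h. At 24 h 12 fell, led by EIF1AX (-0.54) and EIF2S1 (-0.51), and TPT1 (0.15) and EIF4A2 (0.13) rose.

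The other components are read against the same shares, and against 12.2% of all tested genes higher at 6 h and 21.4% at 24 h. Of 4 ribosome components outside the symbol rule, 3 fell at 6 h, RPL36AL and RACK1 among them, and RPL36AL (-0.23) and FAU (-0.15) fell at 24 h. Of 5 elongation factors tested, 3 fell at each time. EIF5A was at -0.62 at 24 h and EEF2, the translocase, at 0.09, which was called higher. Of 9 snoRNA host genes with a TOP start, 7 fell at 6 h, and at 24 h SNHG12 (-0.41) and SNHG1 (-0.36) fell while LRRC75A-AS1 (0.10) and SNHG5 (0.12) rose. In the p53 arm that senses free RPL5 and RPL11, CDKN1A (0.55) and MDM4 (0.25) rose at 24 h. MYC was at -1.23 ± 0.030 with MS41 at 6 h and at -0.95 ± 0.030 at 24 h, with 231 ± 6.77 CPM with MS41 and 446 ± 5.61 CPM with DMSO at the later time. With ENL guides, 4.98% of all tested genes were lower and 5.32% higher. There 3 of the 11 genes in the chaperone list fell (GRWD1 at -0.38, PDCD2 at -0.25 and RPS19BP1 at -0.23). Of the regulators 2 fell (EIF4EBP1 at -0.43 and LARP1 at -0.26), and MYC was at -0.23, not called. With MS41 in SEMK2, GRWD1 was at -0.13 (adjusted p = 0.29), EIF4EBP1 at -0.15 (0.55) and MYC at -0.13 (0.39), none of them called. In vivo, with MS41 against vehicle, GRWD1 was at 0.01, EIF4EBP1 at -0.05 and MYC at -0.69 ± 0.153 (adjusted p = 0.38), none of them called.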

How the data were processed

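The deposited values from cultured cells are counts of reads per gene, made by the authors with CASAVA 1.8, HISAT2 2.1.0, HTSeq 0.11.3 and build hg38, per the submitters' processing notes; the settings, strand included, are not given in the sources used here. The deposited in vivo values are treated like estimated counts: they are whole numbers, but vehicle and MS41 libraries of 1 replicate number share their mean level (median SD of pair means 0.002 log2, against 0.047 for other pairings, over 9507 genes), so the authors had adjusted them by that number. No value needed rounding. The in vivo fit therefore holds a term for the replicate number.

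Each table was filtered with filterByExpr, scaled by TMM and fitted with the quasi-likelihood test of edgeR 4.0.16 in R 4.3.3, with all MV4;11 compound groups in 1 fit and the mean of both ENL guides set against the control guide. This left 22711, 21433, 17984 and 21337 genes in the compound, SEMK2, guide and in vivo tables. Adjusted p-values are two-sided, by Benjamini-Hochberg across every tested gene of a table, called below 0.05. Log2 fold changes carry an SE and intervals are at 95%. CPM use TMM-scaled library sizes. The method was tested on simulated data, whose results are not given here and are no ground for any comparison. Alternatives include DESeq2 1.42.0. Tables were made with Python 3.11.15 and figures with matplotlib 3.10.9. Positions of starts and sequences are from RefSeq (GRCh38.p14); 15 members had no entry.

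The members and lists were chosen with earlier results of these data known. Named were the L paralogs with their parents, members with known roles outside translation, the 3 highest and 3 lowest per length, and in each comparison up to 6 largest called rises and 6 largest called falls with groups that do not overlap. Pathway genes were named as the 2 largest called changes of a list or where 5 or fewer were called. Some genes that this rule names are not reported here.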

Additional observations from a re-analysis of the deposited data

Results flagged for a closer look

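The response to MS41 differed between 6 and 24 h for 32 of the 81 genes, by the test of the difference between both effects in edgeR with Benjamini-Hochberg adjustment. The 5 largest upward differences on the log2 scale were those of RPL15 (0.27), RPL37 (0.241), RPL22 (0.216), RPS20 (0.197) and RPL31 (0.192). The downward differences were those of RPL22L1 (-0.432), RPL39L (-0.384), RPL17 (-0.38), RPL26L1 (-0.265), RPL7L1 (-0.189) and RPS26 (-0.114). Each time has its own DMSO libraries, and DMSO itself differed between the times, by 0.72 for RPL22L1.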

How the results depend on the processing

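Of the values for single named genes under the alternatives, 2182 kept their direction and side of the threshold, 229 lost the call and 7 changed sign. The 7, all small, were with MS41 against DMSO at 24 h RPL5 (0.0153, length trend removed), RPLP2 (0.032 with the GC trend removed, 0.0315 with the length trend removed), RPS19 (0.0077 and 0.0106 in that order) and RPS27A (0.0023, length), and with MS41 against PFI-6 at 24 h RPL5 (0.015, GC). Counts of called members moved by over 1.5 times as follows. With the length trend removed, the change from 6 to 24 h had 52, PFI-6 at 6 h 12 and the guides 2. With the GC trend removed, MS41N at 6 h had 11 and SEMK2 6. With no filter on low counts, MS41N at 6 h had 13, MS41N at 24 h 1, MS41 against PFI-6 at 6 h 23, SEMK2 5 and the guides 3. With DESeq2's Wald test, MS41N at 6 h had 11 and the guides 2. The replicate block gave 1 in SEMK2 and 3 with guides, and 61 for MS41 at 6 h and 36 at 24 h. Without the block the in vivo count was 1. The numbers were treated as names, since deviations of same-numbered libraries correlated between -0.0898 and 0.157 in the compound libraries and -0.0305 and 0.101 in SEMK2. With guides the range was -0.00282 to 0.426 with a mean of 0.195, so that ground is weaker there. The main guide fit has no replicate block. With 1 library left out in turn, the counts lay between 46 and 63 for MS41 at 6 h, 24 and 48 at 24 h, 24 and 36 for the change, 0 and 7 for MS41N at 6 h, 0 and 0 for MS41N at 24 h, 4 and 16 for PFI-6 at 6 h and 12 and 16 at 24 h. They lay between 21 and 27 for MS41 against MS41N at 6 h and 28 and 38 at 24 h, 9 and 17 for MS41 against PFI-6 at 6 h and 38 and 42 at 24 h, 45 and 53 for DMSO over time, 0 and 17 in SEMK2, 0 and 1 with guides and 0 and 0 in vivo. The difference in the members' share of counts lay between -0.1597 and -0.0763 points for MS41 at 6 h, 0.0637 and 0.1857 at 24 h, -0.0983 and -0.0158 for MS41N at 24 h, -0.2493 and -0.2268 for PFI-6 at 24 h, -0.039 and 0.2095 in SEMK2 and -0.4472 and -0.2942 in vivo. The baseline median per length was 832.47 with the longest transcript and 1411.8 with the APPRIS principal one. Sums with copies, the principal transcript and the shares with a library left out were chosen after seeing the data. The cause of these moves was not tested.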
